A study of Mus musculus with 6 samples.

Results

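The interferon regulatory factors are a family of transcription factors, and 8 of their genes were measured: Irf1, Irf2, Irf3, Irf4, Irf5, Irf7, Irf8 and Irf9. They were chosen as every probe set annotated to one of these symbols, which gave 12 of 45141 probe sets, and 8 of the 17097 genes tested. Expression was measured on 6 arrays of cultured mouse T cells, 2 for each plate coating. The cells were CD4-positive and depleted of CD25-positive cells, and came from female C57BL/6 mice. In the BTNL2 wells the plate coat was anti-CD3, an antibody that stimulates cells through their antigen receptor, with rB7-2.Fc and rBTNL2.Fc, at 2, 3 and 11 µg/ml. B7-2 (CD86) is the ligand of the costimulatory receptor CD28 and of CTLA-4, and BTNL2 is a butyrophilin-like protein related to B7 molecules. The B7-2 wells carried the antibody, rB7-2.Fc and control IgG, and the anti-CD3 wells the antibody and control IgG. The medium of every well contained IL-2 (10 ng/ml) and TGF-beta (0.36 ng/ml), and cells were harvested after 4 days. One label names spleen as the source and another names spleen and lymph nodes, and no label says that duplicate wells held cells of separate animals. The p-values below therefore measure the spread between these cultures and arrays only.

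IRF proteins bind DNA through an N-terminal domain that recognises GAAA repeats, the core of the interferon-stimulated response element (ISRE). IRF3 and IRF7 are switched on by kinases downstream of nucleic acid sensors and drive type I interferon genes, and IRF9 joins STAT2 in the complex that carries the signal of the type I interferon receptor. IRF1 is an interferon-induced activator, and IRF2 competes with it for the same sites. IRF4 and IRF8 are the lymphoid and myeloid members, which bind DNA weakly alone and pair with other factors. In T cells IRF4 is induced by the antigen receptor and acts with BATF and AP-1 proteins.

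Promoter windows of 4 of the 5 genes that were higher with BTNL2 than with B7-2 are shown, because interferon and STAT signals act on such stretches. Irf7 had the largest change, and the windows of Irf1, Irf2 and Irf8 were chosen because they hold motif matches. The sequences are from RefSeq on GRCm38.p6 and run from 250 bases before to 50 bases after a start site, and 11 such windows were found for the 8 genes. Capitals mark matches, on either strand, to the ISRE core (GAAA and GAAA with any 2 bases between), to the STAT-type GAS motif TTCNNNGAA or to the AP-1 motif TGANTCA.
Irf7, chr7:141266375-141266674, minus strand: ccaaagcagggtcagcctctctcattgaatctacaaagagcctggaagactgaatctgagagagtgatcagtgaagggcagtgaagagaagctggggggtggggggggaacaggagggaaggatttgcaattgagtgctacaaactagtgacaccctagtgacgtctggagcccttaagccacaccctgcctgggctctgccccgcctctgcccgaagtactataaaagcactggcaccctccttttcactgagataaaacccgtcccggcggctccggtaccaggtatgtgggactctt
Irf1, chr11:53769764-53770063, plus strand: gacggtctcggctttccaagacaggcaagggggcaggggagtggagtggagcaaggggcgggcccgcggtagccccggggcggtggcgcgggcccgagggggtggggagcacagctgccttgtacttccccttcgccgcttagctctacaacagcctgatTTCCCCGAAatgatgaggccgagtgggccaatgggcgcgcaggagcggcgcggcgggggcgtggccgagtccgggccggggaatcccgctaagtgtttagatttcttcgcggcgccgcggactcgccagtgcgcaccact
Irf2, chr8:46739495-46739794, plus strand: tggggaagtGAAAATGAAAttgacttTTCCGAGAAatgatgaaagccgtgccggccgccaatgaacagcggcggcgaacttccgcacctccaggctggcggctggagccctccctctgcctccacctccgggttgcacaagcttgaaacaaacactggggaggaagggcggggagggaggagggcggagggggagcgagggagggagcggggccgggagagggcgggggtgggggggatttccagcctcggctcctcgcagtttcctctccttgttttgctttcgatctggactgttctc
Irf8, chr8:120736108-120736407, plus strand: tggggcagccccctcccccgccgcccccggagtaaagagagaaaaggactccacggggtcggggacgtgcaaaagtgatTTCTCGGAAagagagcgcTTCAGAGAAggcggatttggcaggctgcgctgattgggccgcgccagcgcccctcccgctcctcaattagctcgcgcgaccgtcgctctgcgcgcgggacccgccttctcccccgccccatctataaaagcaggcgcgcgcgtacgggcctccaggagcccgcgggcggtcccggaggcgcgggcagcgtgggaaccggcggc
The Irf1 window held 1 GAS match, which began 90 bases before the start site. The Irf2 window held an ISRE match from base -241 and a GAS match from base -224. The Irf8 window held 2 GAS matches, from bases -171 and -153. These matches did not overlap each other, and the Irf7 window held none. The fifth gene, Irf9, has 2 windows with 0 matches, and the second windows of Irf1 and Irf8 held 0 matches as well. Among all 11 windows of the family, 1 held the ISRE core, 3 a GAS match and 0 an AP-1 match. Of 32851 windows of this length in the table, 3.44% held the ISRE core, 8.3% a GAS match and 7.81% an AP-1 match. These are matches of letters, and binding was not measured.

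T cell markers were bright on every array. The 11 T cell markers measured summed to 23931 and 23969 on the BTNL2 arrays, 23426 and 23623 on the B7-2 arrays and 28189 and 27890 on the anti-CD3 arrays, and each averaged at least 592. Duplicates correlated at r = 0.997 to 0.998 across genes, and arrays of different groups at 0.974 to 0.987, with genes not being independent replicates. Median intensities ran from 18.45 to 18.77, above nonspecific control probe sets, whose medians ran from 3.68 to 4.49. Precision is limited by having 2 arrays in each group.

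The first question is how cells given B7-2 differed when BTNL2 was present too. Of the 8 genes, 5 were higher in the BTNL2 wells (Irf1, Irf2, Irf7, Irf8 and Irf9), 1 was lower (Irf4), and Irf3 and Irf5 did not pass the test. The test was limma over all genes, called at a Benjamini-Hochberg adjusted p under 0.05. Of all 17097 genes, 9.52% were called higher and 10.8% lower, 20.4% in all. Tested probe set by probe set, 5 of the 12 were higher and 1 lower, with 6.77% of all 45037 probe sets called higher and 7.04% lower, 13.8% in all. The median log2 change of the 8 genes was 0.56, beside -0.01 for all genes. These are bulk samples, in which fewer cells of a type and less RNA per cell cannot be told apart.

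The second question is what B7-2 added to anti-CD3. Here 0 of the 8 genes were higher and 3 were lower (Irf2, Irf7 and Irf9), with 11.2% of all genes called higher and 13.3% lower, 24.5% in all. The median log2 change of the family was -0.16, beside -0.00484 for all genes. Of the 12 probe sets, 0 were higher and 3 lower, with 8.78% of all probe sets called higher and 8.56% lower, 17.3% in all. Set against anti-CD3 wells, the BTNL2 wells had 3 genes higher (Irf1, Irf7 and Irf8) and 1 lower (Irf4), with 14.2% of all genes higher and 16.2% lower, 30.4% in all. Of the 12 probe sets, 4 were higher and 2 lower, with 11.5% of all probe sets called higher and 10.7% lower, 22.2% in all. Each pair of these comparisons shares a group of arrays, so their values for a gene are not independent.

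**Figure D1:**
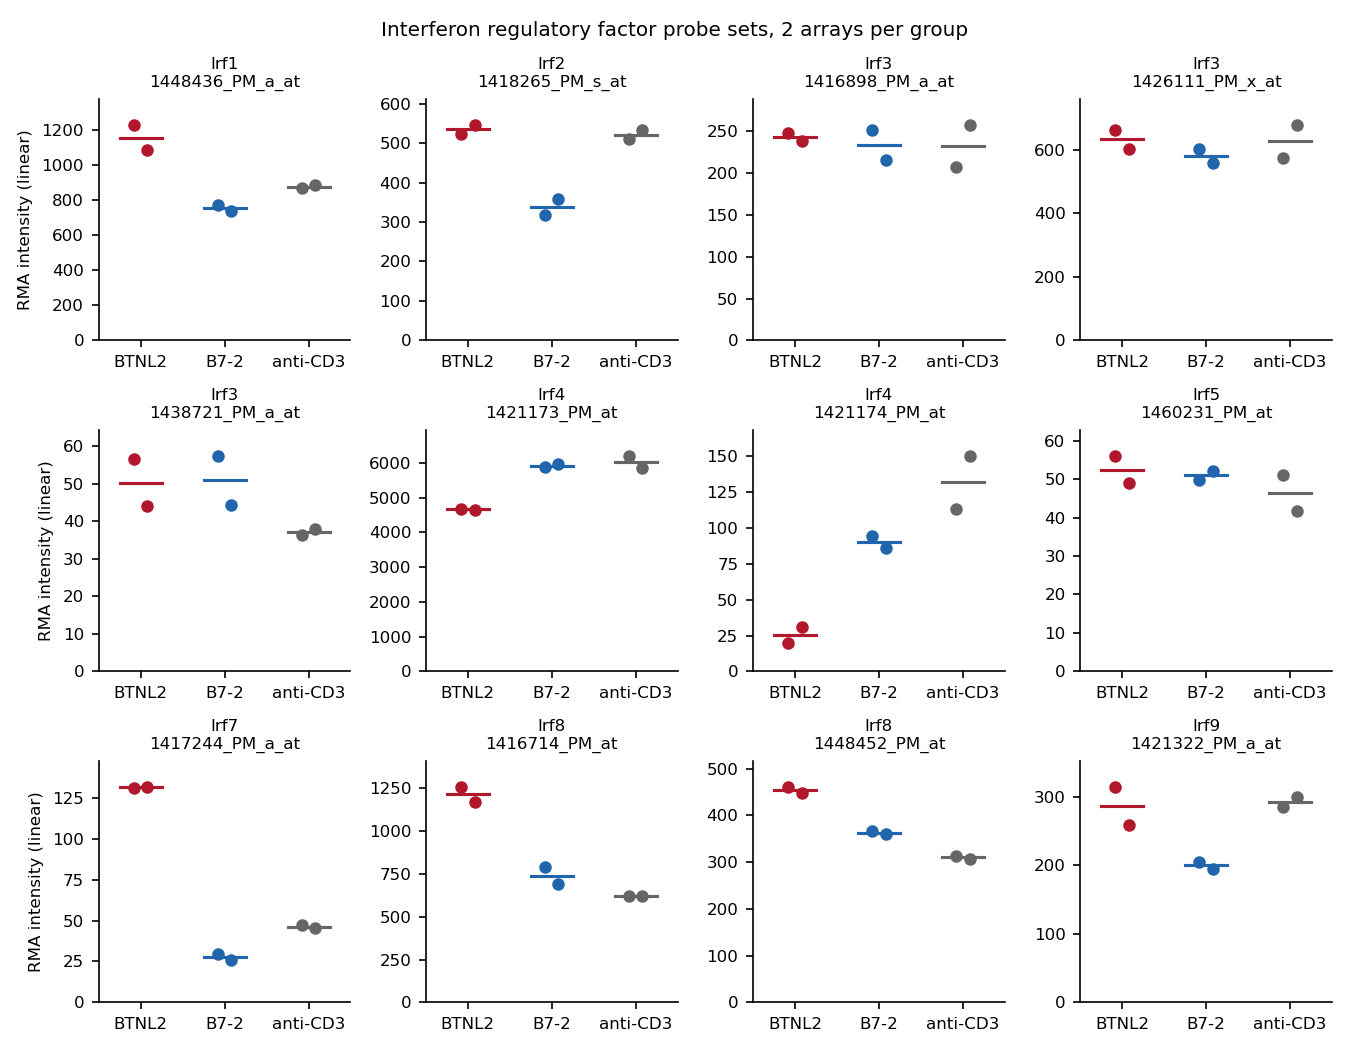
RMA intensity on a linear axis (y) for the 12 probe sets of 8 interferon regulatory factor genes in BTNL2, B7-2 and anti-CD3 wells (x). Points are the 2 arrays of a group and bars their mean. Irf7 reads 131 and 132 in BTNL2 wells and below 50 on the other 4 arrays, and both Irf4 probe sets are lowest in BTNL2 wells.

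Among the factors of the interferon response itself, Irf7 had the largest change in each comparison. IRF7 is the member that amplifies type I interferon production, and its gene is itself interferon-induced. Its probe set (1417244_PM_a_at) read 131 and 132 in the BTNL2 wells, 29.5 and 25.9 in the B7-2 wells and 47.1 and 45.5 in the anti-CD3 wells. The 3 groups did not overlap, with the BTNL2 wells highest and the B7-2 wells lowest. Irf7 was 4.75-fold higher with BTNL2 than with B7-2 (log2 change 2.25 ± 0.10, SE; adjusted p = 2.2e-05), which ranked 163 by size among the 17097 genes. It was 1.67-fold lower in B7-2 wells than in anti-CD3 wells (log2 change -0.74 ± 0.10, adjusted p = 0.00209). Against anti-CD3 wells it was 2.84-fold higher in BTNL2 wells (log2 change 1.51 ± 0.10, adjusted p = 7.06e-05).

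Irf9 encodes a DNA-binding subunit of the complex that acts below the type I interferon receptor. It read 315 and 259 in the BTNL2 wells, 205 and 195 in the B7-2 wells and 286 and 299 in the anti-CD3 wells. The B7-2 arrays lay below all others, and the other groups overlapped. Irf9 was 1.43-fold higher in BTNL2 than in B7-2 wells (log2 change 0.51 ± 0.11, adjusted p = 0.0201) and 1.46-fold lower in B7-2 than in anti-CD3 wells (log2 change -0.55 ± 0.11, adjusted p = 0.0133). Between BTNL2 and anti-CD3 wells the change was -0.04 on the log2 scale (95% interval -0.31 to 0.23). The first call was lost without the first B7-2 array (log2 change 0.55, adjusted p = 0.0664), the second B7-2 array (0.48, adjusted p = 0.0909) or the first BTNL2 array (0.37, adjusted p = 0.0882). The second was lost without the first anti-CD3 array (-0.58, adjusted p = 0.0555), the second anti-CD3 array (-0.51, adjusted p = 0.0746) or the second B7-2 array (-0.51, adjusted p = 0.0693).

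Irf3, the constitutive partner of Irf7 in interferon gene activation, had 3 probe sets and was not called in any comparison by any of them. The brightest (1426111_PM_x_at, a design whose probes can match other transcripts) read 662 and 602 in BTNL2 wells, 603 and 558 in B7-2 wells and 573 and 678 in anti-CD3 wells. All 3 groups overlapped. Its log2 change was 0.12 with BTNL2 against B7-2 (95% interval -0.15 to 0.39, adjusted p = 0.526) and -0.10 with B7-2 against anti-CD3 (95% interval -0.38 to 0.17, adjusted p = 0.584). The second (1416898_PM_a_at) read 247 and 237 in BTNL2 wells, 251 and 215 in B7-2 wells and 207 and 257 in anti-CD3 wells. The third (1438721_PM_a_at) read 44.03 to 57.45 in BTNL2 and B7-2 wells and 36.5 and 37.8 in anti-CD3 wells, a log2 change of 0.44 in B7-2 against anti-CD3 wells that did not pass over all probe sets (adjusted p = 0.115).

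Irf5, which acts in Toll-like receptor signalling of myeloid and B cells, was not called in any comparison, and its groups overlapped. It read 56.1 and 48.9 in BTNL2 wells, 49.7 and 52.2 in B7-2 wells and 51.1 and 41.6 in anti-CD3 wells. The log2 change was 0.04 with BTNL2 against B7-2 (95% interval -0.26 to 0.34, adjusted p = 0.879) and 0.14 with B7-2 against anti-CD3 (95% interval -0.16 to 0.44, adjusted p = 0.486).

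**Figure D2:**
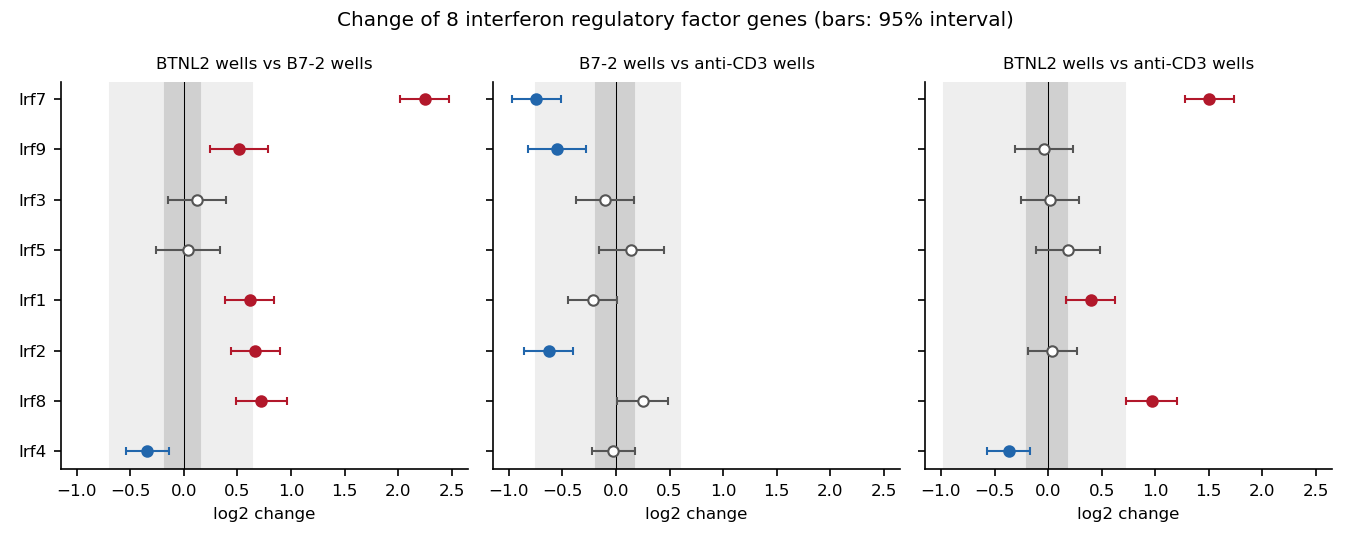
Log2 change (x) of the 8 genes (y) in the 3 comparisons, with 95% intervals from the limma fit. Red and blue points were called higher and lower, open points were not called, and the dark and light grey bands hold the middle 50% and 90% of all 17097 genes. Irf7 (2.25), Irf8 (0.72) and Irf2 (0.67) lie outside the light band in the first panel, and Irf7 (1.51) and Irf8 (0.97) in the third.

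The activator Irf1 and its antagonist Irf2 were both higher in BTNL2 than in B7-2 wells. Irf1 read 1229.9 and 1084 in BTNL2 wells, 771 and 738 in B7-2 wells and 871 and 884 in anti-CD3 wells. The groups did not overlap. The rise with BTNL2 over B7-2 was 1.53-fold (log2 change 0.61 ± 0.10, adjusted p = 0.00479). The lower reading in B7-2 than in anti-CD3 wells was not called (log2 change -0.22 ± 0.10, adjusted p = 0.159), though it was when the variance prior followed intensity (adjusted p = 0.0331). In BTNL2 against anti-CD3 wells Irf1 was 1.32-fold higher (log2 change 0.40 ± 0.10, adjusted p = 0.0196). This call was lost without the first (adjusted p = 0.0907) or the second anti-CD3 array (adjusted p = 0.0774) or the first BTNL2 array (adjusted p = 0.0947), with log2 changes of 0.38, 0.41 and 0.31.

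Irf2 (1418265_PM_s_at, a design whose probes can match several transcripts) read 524 and 546 in BTNL2 wells, 318 and 358 in B7-2 wells and 509 and 533 in anti-CD3 wells. Only the B7-2 arrays stood apart from the rest. Irf2 was 1.59-fold higher with BTNL2 against B7-2 (log2 change 0.67 ± 0.10, adjusted p = 0.00334) and 1.54-fold lower with B7-2 against anti-CD3 (log2 change -0.63 ± 0.10, adjusted p = 0.00403). Between BTNL2 and anti-CD3 wells the change was 0.04 on the log2 scale, with a 95% interval of -0.19 to 0.27 (adjusted p = 0.815). Of the corepressors that bind IRF2, Irf2bp2 was 2.13-fold higher in BTNL2 than in B7-2 wells (log2 change 1.09 ± 0.15, adjusted p = 0.00226) and Irf2bpl was higher as well (log2 change 0.54 ± 0.14, adjusted p = 0.0374). Irf2bp1 read 52.7 and 54.4 in BTNL2 wells and 45.9 and 44.2 in B7-2 wells, and did not pass (adjusted p = 0.0822).

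The lymphoid pair went in opposite directions with BTNL2. Irf8 was higher: its brighter probe set (1416714_PM_at) read 1259.6 and 1173 in BTNL2 wells, 790.0 and 689 in B7-2 wells and 622 and 621 in anti-CD3 wells. The groups did not overlap and the anti-CD3 wells were lowest. The change was 1.65-fold against B7-2 wells (log2 change 0.72 ± 0.10, adjusted p = 0.00282) and 1.96-fold against anti-CD3 wells (log2 change 0.97 ± 0.10, adjusted p = 0.000499). Between B7-2 and anti-CD3 wells Irf8 was not called (log2 change 0.25 ± 0.10, adjusted p = 0.128), but was when the variance prior followed intensity (adjusted p = 0.0231). The other probe set (1448452_PM_at) had the same order, with 461 and 447 in BTNL2 wells, 366 and 359.9 in B7-2 wells and 314 and 307 in anti-CD3 wells. Its change with BTNL2 against B7-2 was smaller (log2 change 0.32) and did not pass over all probe sets (adjusted p = 0.0596), whereas against anti-CD3 wells it did (log2 change 0.55, adjusted p = 0.0046).

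IRF8 is abundant in B cells and dendritic cells, so their markers are given beside it. The 11 B cell markers summed to 837 and 1058 in BTNL2 wells, 615 and 596 in B7-2 wells and 1009 and 941 in anti-CD3 wells. The sums of the BTNL2 and anti-CD3 wells overlapped, and single markers went both ways. Of these 11 markers 5 were called higher and 1 lower with BTNL2 against B7-2, with 9.52% of all genes higher and 10.8% lower. Ms4a1 was higher, with 280 and 384 in BTNL2 wells, 95.3 and 97.8 in B7-2 wells and 133 and 128 in anti-CD3 wells. Ebf1 was the lower one, by 2.70-fold, and 3 of the 11 B cell markers read below 20 on every array. The 11 dendritic cell markers summed to 3737 and 4287 in BTNL2 wells, 5647 and 5413 in B7-2 wells and 6872 and 6646 in anti-CD3 wells, and 5 of them, with Flt3, Itgax and Xcr1 among them, read below 20 on every array. Snx22 alone read 2654 and 2813 in BTNL2 wells, 3203 and 3032 in B7-2 wells and 3048 and 3176 in anti-CD3 wells. H2-Ab1 read 621 and 939 in BTNL2 wells and 1271 and 1236 in B7-2 wells. Batf3, described below as a partner, is also in the list. Of the 11, 1 was called higher and 2 lower. The 13 monocyte and macrophage markers summed to 446 and 418 in BTNL2 wells, 288 and 295 in B7-2 wells and 343 and 354 in anti-CD3 wells, with 6 below 20 on every array. Of these 3 were called higher and 1 lower. The 11 CD8 and NK cell markers summed to 7209 and 6439 in BTNL2 wells, 3167 and 3177 in B7-2 wells and 3658 and 3785 in anti-CD3 wells. Of them 8 were called higher and 0 lower, and 2 of the 11 read below 20 on every array. Those not called were Ncr1 (adjusted p = 0.12), Klrb1c (adjusted p = 0.175) and Klra8 (adjusted p = 0.934). Ncr1 read 6.62 and 5.76 in BTNL2 wells and 5.24 and 4.75 in B7-2 wells. Nkg7 alone read 3988 and 3665 in BTNL2 wells and 2816 and 2842 in B7-2 wells. Cd8a read 987 and 924 in BTNL2 wells, 119 and 107 in B7-2 wells and 302 and 321 in anti-CD3 wells. With BTNL2 against B7-2 it was 8.48-fold higher, Cd8b1 2.49-fold and Eomes 63.8-fold. Eomes read 1337 and 991 in BTNL2 wells, 19.98 and 16.3 in B7-2 wells and 21.1 and 17.7 in anti-CD3 wells. Of the 11 T cell markers, 2 were called higher (Lat and Thy1) and 2 lower (Cd5 and Cd28) with BTNL2 against B7-2. With B7-2 against anti-CD3, 0 were higher and 3 lower, beside 11.2% and 13.3% of all genes. With BTNL2 against anti-CD3, 2 were higher and 6 lower, beside 14.2% and 16.2% of all genes. The lowest reading of any probe set on an array was 2.7 to 2.97, so a reading above 0 does not show that a marker was detected. The part of any of these cell types in the Irf results was not tested.

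Irf4 was lower with BTNL2, by an amount that depended on the probe set. The bright one (1421173_PM_at) read 4678 and 4652 in BTNL2 wells, 5869 and 5969 in B7-2 wells and 6204 and 5846 in anti-CD3 wells. The BTNL2 arrays lay below the other 4, which overlapped. This was 1.27-fold lower against B7-2 wells (log2 change -0.34 ± 0.09, adjusted p = 0.03) and 1.29-fold lower against anti-CD3 wells (log2 change -0.37 ± 0.09, adjusted p = 0.0156). The dim one (1421174_PM_at) read 19.9 and 30.9 in BTNL2 wells, 94.1 and 86.1 in B7-2 wells and 113 and 150.3 in anti-CD3 wells. It was 3.63-fold lower against B7-2 wells (log2 change -1.86 ± 0.22, adjusted p = 0.00147 over all probe sets) and 5.26-fold lower against anti-CD3 wells (log2 change -2.40 ± 0.22, adjusted p = 0.000318).

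Both Irf4 probe sets carry the same accession in the annotation. With their log2 values averaged, Irf4 changed by -1.10 with BTNL2 against B7-2 (adjusted p = 0.000856) and by -1.38 against anti-CD3 (adjusted p = 0.000207). The bright probe set lay at the 99.5th percentile of all probe sets and the dim one at the 68.2nd, and the part of signal range in their difference was not tested. The call of the bright probe set against B7-2 wells was lost when 1 array was left out, with adjusted p = 0.0506 without either anti-CD3 array, 0.107 and 0.119 without the first or second B7-2 array, and 0.101 and 0.0926 without the first or second BTNL2 array (log2 changes -0.33 to -0.36). It was lost as well with only the arrays of the BTNL2 and B7-2 wells in the fit (adjusted p = 0.0506) and with replicate number as a block (adjusted p = 0.0553). Tested over all probe sets, the bright one had an adjusted p of 0.0516. Against anti-CD3 wells its call was lost without the first anti-CD3 array (log2 change -0.33, adjusted p = 0.0927), the first BTNL2 array (-0.37, adjusted p = 0.0566) or the second BTNL2 array (-0.36, adjusted p = 0.0583). Neither probe set was called with B7-2 against anti-CD3.

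Genes listed as partners of IRF4 and IRF8, most of them DNA-binding factors, moved both ways. The list also holds Def6 and Swap70, which were not called with BTNL2 against B7-2. Bcl6 is both in this list and in the IRF4-linked list below. Of 21 measured, 6 were higher and 6 lower in BTNL2 than in B7-2 wells (9.52% and 10.8% of all genes). Their median log2 change was 0.15. Batf, the AP-1 family partner of IRF4 in T cells, was 1.73-fold lower (log2 change -0.79 ± 0.19, adjusted p = 0.0292), with 400.1 and 615 in BTNL2 wells against 925 and 792 in B7-2 wells. Its relative Batf3 was 2.96-fold lower (log2 change -1.57 ± 0.11, adjusted p = 0.000153) and Fosl2 4.32-fold lower (log2 change -2.11 ± 0.14, adjusted p = 0.00011). Jun was 2.93-fold higher, with 856 and 644 in BTNL2 wells, 264 and 243 in B7-2 wells and 652 and 663 in anti-CD3 wells. Spib, an ETS factor that pairs with IRF4 and IRF8 in B cells, was 2.17-fold higher with BTNL2 against B7-2 (adjusted p = 0.00257), and Spi1 read 14.3 to 16.4 on all 6 arrays and was not called.

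With B7-2 against anti-CD3, 2 of the 21 partner genes were higher and 7 lower (median -0.13), beside 11.2% and 13.3% of all genes. Bcl6, a repressor that directs follicular helper cells, was 5.47-fold lower (log2 change -2.45 ± 0.15) and Ikzf3 2.26-fold lower. Batf (log2 change -0.09) and Batf3 (log2 change -0.26) were not called in that comparison.

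**Figure D3:**
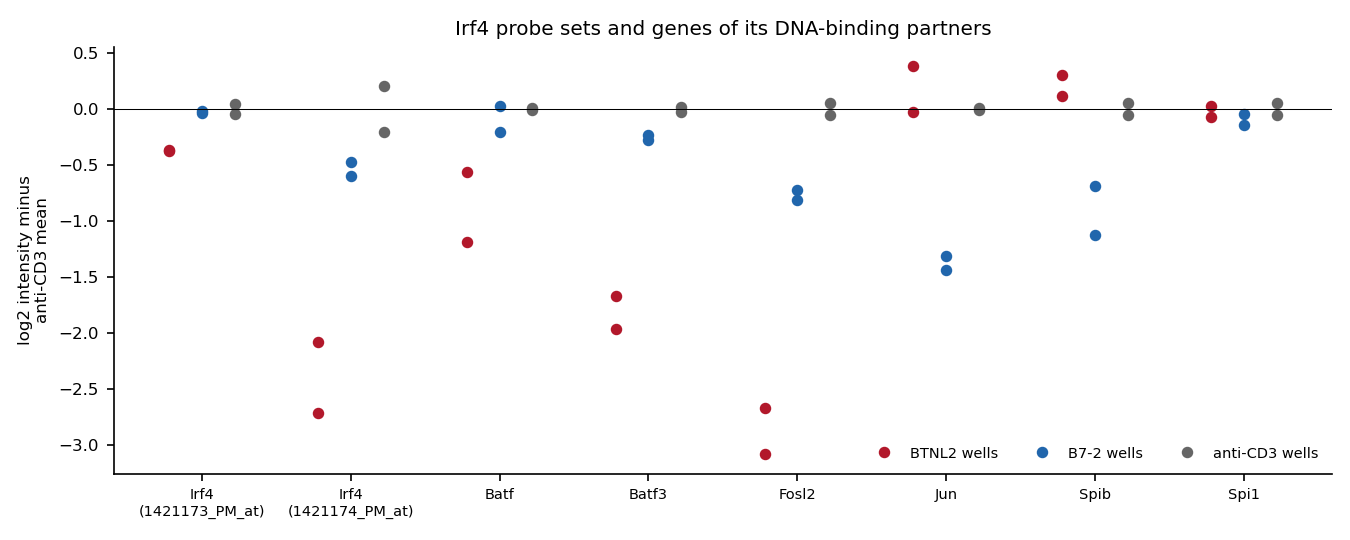
Log2 intensity minus the mean of the anti-CD3 arrays (y) for both Irf4 probe sets and 6 genes of DNA-binding partners (x), with a point for each of the 2 arrays of BTNL2, B7-2 and anti-CD3 wells. The BTNL2 points of both Irf4 probe sets, Batf, Batf3 and Fosl2 lie below those of the other groups, while Jun and Spib are lowest in B7-2 wells.

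Most genes linked to IRF4 in activated T cells that were called with BTNL2 were lower. Of 25 measured, 3 were higher and 17 lower against B7-2 wells (9.52% and 10.8% of all genes), with a median log2 change of -0.61. Prdm1, which encodes the effector regulator Blimp-1, read 90.6 and 88.4 in BTNL2 wells, 191 and 216 in B7-2 wells and 79.6 and 87.4 in anti-CD3 wells, a 2.27-fold difference between BTNL2 and B7-2 wells (log2 change -1.18 ± 0.10, adjusted p = 0.000324). Zbtb32, a zinc finger repressor gene of activated lymphocytes, was 2.96-fold lower, and Il5, Ctla4 and Il13 had log2 changes of -4.02, -1.65 and -1.41. The 3 higher ones were Il9 (log2 change 2.67, adjusted p = 0.000202), Bcl6 (0.92, adjusted p = 0.00502) and Icos (0.52, adjusted p = 0.00703). With B7-2 against anti-CD3, 12 of the 25 were higher and 2 lower (median 0.04), beside 11.2% and 13.3% of all genes. The smallest p-values among the 25 were those of Il13 (log2 change 2.24) and Il9 (log2 change 3.98), and Il5 had a log2 change of 3.89. Irf4 itself was not called in that comparison.

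Of 15 genes linked to IRF1 in T cells, 5 were higher and 2 lower with BTNL2 against B7-2 (median 0.15), beside 9.52% and 10.8% of all genes. The list shares Gbp2 and Psmb9 with the interferon-stimulated genes, Ifngr1 with the receptor genes and Socs1 with the inhibitors, all given below. Gbp2, a guanylate-binding protein gene, had a log2 change of 1.48 and the death ligand gene Tnfsf10 (TRAIL) was 2.78-fold higher, with 261 and 278 in BTNL2 wells against 89.0 and 106 in B7-2 wells. Ciita, the master regulator gene of MHC class II, was 2.38-fold higher, at the low readings of 24.4 and 27.6 against 11.2 and 10.6. Ifngr1, the ligand-binding chain of the interferon gamma receptor, was 2.10-fold higher. With B7-2 against anti-CD3, 1 of the 15 was higher and 4 lower (median -0.08), beside 11.2% and 13.3% of all genes. Gbp2 had a log2 change of -2.48 and Ifngr1 one of -0.75.

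Upstream of the family, the interferon genes themselves gave little signal other than Ifng. Of 11 measured, 1 was higher and 0 lower with BTNL2 against B7-2, beside 9.52% and 10.8% of all genes. That was Ifng, which read 2900 and 2530 in BTNL2 wells, 1295 and 1216 in B7-2 wells and 242 and 286 in anti-CD3 wells. With B7-2 against anti-CD3, 1 was higher and 0 lower, beside 11.2% and 13.3% of all genes. This was Ifng as well (log2 change 2.26 ± 0.12, adjusted p = 0.000166). Ifng was also the only one called with BTNL2 against anti-CD3 (log2 change 3.37), beside 14.2% of all genes higher and 16.2% lower. The other 10, type I interferon genes, read 3.62 to 48.4 on the 6 arrays and were not called in any comparison. Ifnb1 read 12.1 and 11.2 in BTNL2 wells, 9.68 and 11.5 in B7-2 wells and 12 and 10.6 in anti-CD3 wells, and did not pass (adjusted p = 0.473 with BTNL2 against B7-2). Ifna9 had a log2 change of -0.23 (adjusted p = 0.179) and Ifnab of -0.14 (adjusted p = 0.482) with BTNL2 against B7-2, and Ifna7 of -0.44 with B7-2 against anti-CD3 (adjusted p = 0.117).

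Of 12 interferon receptor and JAK-STAT genes, 6 were higher and 1 lower with BTNL2 against B7-2 (median 0.40), beside 9.52% and 10.8% of all genes. With B7-2 against anti-CD3, 0 were higher and 6 lower (median -0.47), beside 11.2% and 13.3% of all genes. Stat4, which carries the IL-12 signal, was 2.34-fold higher with BTNL2 against B7-2, and the kinase gene Jak1 1.67-fold higher, whereas Jak2 was 1.53-fold lower. Stat2, the partner of IRF9, read 247 and 190 in BTNL2 wells, 171 and 155 in B7-2 wells and 292 and 311 in anti-CD3 wells. Its difference between BTNL2 and B7-2 wells did not pass (log2 change 0.41 ± 0.14, adjusted p = 0.0821), and it was 1.85-fold lower with B7-2 against anti-CD3 (adjusted p = 0.00408). Ifnar2, a chain of the type I interferon receptor, was 1.87-fold lower with B7-2 against anti-CD3 (log2 change -0.90 ± 0.10) and was not called with BTNL2 against B7-2 (log2 change 0.17 ± 0.10).

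Of 17 genes of the nucleic acid sensing routes to IRF3 and IRF7, 7 were higher and 2 lower with BTNL2 against B7-2 (median 0.34). The shares of all genes were 9.52% and 10.8%. With B7-2 against anti-CD3, 3 were higher and 7 lower (median -0.13), beside 11.2% and 13.3% of all genes. Ikbke, a kinase that phosphorylates IRF3 and IRF7, read 179 and 172 in BTNL2 wells, 72.3 and 67.9 in B7-2 wells and 234 and 219.9 in anti-CD3 wells. The groups did not overlap, and the log2 change was 1.32 ± 0.09 with BTNL2 against B7-2 and -1.69 ± 0.09 with B7-2 against anti-CD3. The RNA sensor genes Ddx58 (RIG-I) and Ifih1 (MDA5) had log2 changes of 1.28 and 0.82 with BTNL2 against B7-2, and the nucleic acid sensor gene Zbp1 2.71-fold higher. Dhx58 (LGP2) was 3.15-fold lower with B7-2 against anti-CD3.

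Of 17 inhibitors of interferon and IRF signalling, 8 were higher and 4 lower with BTNL2 against B7-2 (median 0.25), beside 9.52% and 10.8% of all genes. With B7-2 against anti-CD3, 1 was higher and 7 lower (median -0.21), beside 11.2% and 13.3% of all genes. Usp18, the interferon-induced brake on the type I receptor, read 227 and 169 in BTNL2 wells, 42.9 and 39.6 in B7-2 wells and 155 and 151 in anti-CD3 wells. Nlrc3, a negative regulator of innate signalling, was 3.9-fold higher with BTNL2 against B7-2 and 2.93-fold lower with B7-2 against anti-CD3. Trim21, an E3 ubiquitin ligase that acts on IRF proteins, was 1.71-fold higher with BTNL2 against B7-2, and the NF-kappaB inhibitor gene Tnfaip3 (A20) 2.98-fold lower.

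Of 29 interferon-stimulated genes measured, 21 were higher and 0 lower with BTNL2 against B7-2 (9.52% and 10.8% of all genes). Their median log2 change was 1.11. With B7-2 against anti-CD3, 2 were higher and 13 lower (11.2% and 13.3% of all genes), with a median of -0.30. Isg20, an interferon-induced exonuclease gene, had a log2 change of 3.80 ± 0.10 with BTNL2 against B7-2 (adjusted p = 4.76e-06). Oasl2, of the oligoadenylate synthetase family, had one of 4.38 ± 0.16 (adjusted p = 1.15e-05). It read 169 and 124 in BTNL2 wells, 7.06 and 6.85 in B7-2 wells and 7.36 and 8.58 in anti-CD3 wells. Its B7-2 readings lay below the medians of those arrays (18.48 and 18.45), where the size of a fold change is uncertain. Ifit3, an antiviral effector gene, read 447 and 327 in BTNL2 wells, 15.8 and 11.8 in B7-2 wells and 18.25 and 19.96 in anti-CD3 wells. Samd9l, an interferon-induced growth restraint gene, read 386 and 318 in BTNL2 wells, 39.6 and 37.7 in B7-2 wells and 58 and 57.5 in anti-CD3 wells. Gbp3 had another order, with 749 and 632 in BTNL2 wells, 199 and 213 in B7-2 wells and 818 and 834 in anti-CD3 wells.

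**Figure D4:**
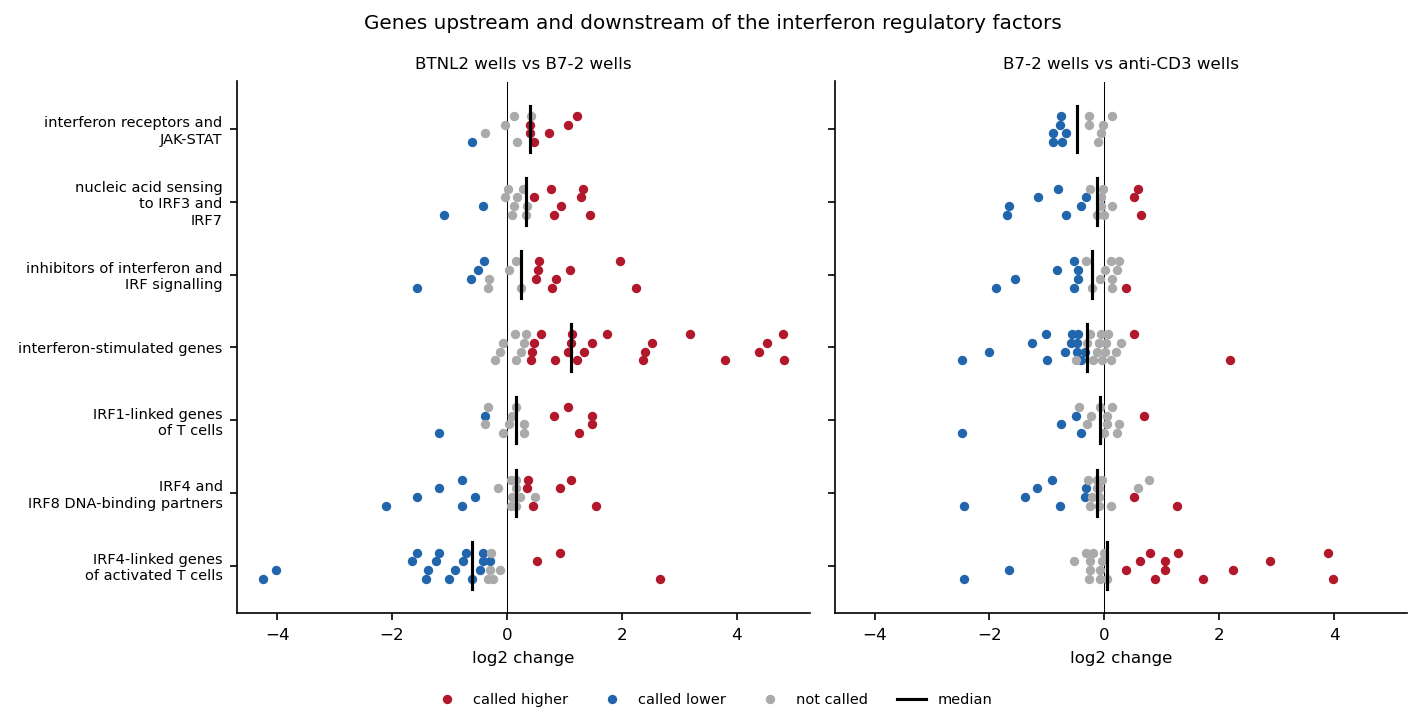
Log2 change (x) of the measured genes of 7 lists (y) in BTNL2 against B7-2 wells (left) and B7-2 against anti-CD3 wells (right). Each point is a gene, red where called higher, blue where called lower and grey where not called. A gene in more than 1 list has a point in each, and the black bar is the median of the list. Interferon-stimulated genes have a median of 1.11 on the left and -0.30 on the right, and IRF4-linked genes -0.61 and 0.04.

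The genes with profiles most like those of the called members were found by Euclidean distance between log2 values over the 6 arrays, each profile minus its own mean. The 3 nearest to Irf7 were Ubd (distance 0.367), Tlr1 (0.369) and Smpdl3b (0.38), beside a length of 2.30 for the Irf7 profile itself. The nearest to Irf8 were Ikzf4 (0.154), Cenps (0.190) and Golm1 (0.192). The nearest to Irf1 were Asb13 (0.0782), Ankrd44 (0.0913) and Adgrg1 (0.112), and those to Irf2 were Usf3 (0.104), Abhd16a (0.135) and Pip4k2a (0.151). Irf9 lay nearest to Vps13d (0.0828), Tug1 (0.0959) and Itpkb (0.102), and the bright Irf4 probe set nearest to Nsa2 (0.0681), Robo3 (0.0718) and Anp32a (0.0755). Ubd read 239.8 and 189 in BTNL2 wells, 54.6 and 50.6 in B7-2 wells and 80.6 and 71.7 in anti-CD3 wells, so its order of groups was that of Irf7.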

How the data were processed

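The authors deposited 1 intensity per probe set and array, not log-transformed. Their processing notes name RMA, which corrects background, makes the arrays' distributions alike and summarises the probes of a set. A shift shared by most transcripts would not be seen. For RMA, no version is given in the sources used here. Per the labels' protocols, biotin-labelled material was made from RNA amplified by the NuGen Ovation method.

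All values were transformed to log2. Of 45141 probe sets, 104 were controls, 28898 had 1 gene symbol, 551 had several and 15588 none in the platform annotation. Symbols were updated by Entrez identifier with the GRCm38.p6 gene table for 28689. Each gene was represented by its probe set of highest mean (17097 genes), and every probe set that was no control was also tested (45037). limma 3.58.1 in R 4.3.3 (lmFit, eBayes) was fitted to all 6 arrays with 3 residual and 4.02 prior degrees of freedom. The procedure was tested on simulated data.

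The members, the 14 lists (237 genes, of which 206 were measured and 31 were not analysed here) and the tests were chosen with earlier results of these data known. Named from each of the 8 pathway lists, not the marker lists, were the 4 genes of smallest p with BTNL2 against B7-2, the 2 of smallest p with B7-2 against anti-CD3, and direct partners of the family from a list (Prdm1 was in it). Icos and single marker genes were named after their values were seen. Alternatives changed the variance prior, arrays, filter, scaling, probe sets, pseudocount and block.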

Additional observations from a re-analysis of the deposited data

How the results depend on the processing

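Of 360 values of single genes under 15 alternatives each, 329 kept their direction and their side of the threshold, and no called value changed direction. Irf7 and Irf2 kept theirs in every comparison under all 15. Of the 8 genes, 3 were called with B7-2 against anti-CD3, and 5 when the variance prior followed intensity, at 5 of 12 probe sets against 3. That setting called 5128 genes in all against 4190, and 10088 of 45037 probe sets against 7809. Deviations from group means of same-numbered arrays correlated at -0.0641 to -0.000967 across genes. This shows no large effect shared by replicate number, but cannot tell whether same-numbered wells came from a shared preparation. With replicate number as a block, 3160 genes were called with BTNL2 against B7-2, 3765 with B7-2 against anti-CD3 and 4827 with BTNL2 against anti-CD3, and of the 8 genes 5, 3 and 4. Irf4 with BTNL2 against B7-2 was the only call of the family that the block changed. With 1 array left out, the genes called numbered 2142 to 3015 with BTNL2 against B7-2, 2454 to 4128 with B7-2 against anti-CD3 and 3726 to 4870 with BTNL2 against anti-CD3. With BTNL2 against B7-2 this was 2142 without the first BTNL2 array and 2181 and 2313 without the first or second B7-2 array, against 3482 in full. With B7-2 against anti-CD3 it was 2722 and 2687 without the first or second B7-2 array and 2454 and 2647 without the first or second anti-CD3 array, against 4190 in full. The calls of single members that were lost in these fits are given above with their log2 changes. A fit without an array of a group leaves that group 1 array, which is assumed to vary like the others. Without the first anti-CD3 array or the first BTNL2 array, 2 of the 8 genes were called with BTNL2 against anti-CD3. The causes of these changes were not tested beyond the loss of an array. With 16 added before log2, the change of Irf7 with BTNL2 against B7-2 was 1.76.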

Other observations

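The wells with BTNL2 and B7-2 were also set against those with anti-CD3 alone for the genes around the family. Of 29 interferon-stimulated genes, 17 were higher and 1 lower in BTNL2 than in anti-CD3 wells (median log2 change 0.44), and the lower one was Gbp2 (adjusted p = 0.000225), chosen after its value was seen. Of 12 receptor and JAK-STAT genes, 3 were higher and 5 lower (median -0.11), with Stat2 at -0.48 ± 0.14 and Ifnar2 at -0.74 ± 0.10. Of 17 sensing genes, 5 were higher and 4 lower (median 0.13), with Ikbke at -0.37 ± 0.09 and Zbp1 at 0.77 ± 0.09. Of 17 inhibitors, 5 were higher and 5 lower (median 0.17). Of 21 partner genes, 1 was higher and 6 lower (median -0.02), with Batf3 at -1.82 ± 0.11 and Fosl2 at -2.88 ± 0.14. Of 25 IRF4-linked genes, 4 were higher and 10 lower (median -0.19), and of 15 IRF1-linked genes, 5 and 4 (median 0.17). This comparison called 14.2% of all genes higher and 16.2% lower, 30.4% in all.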
